A study of Mus musculus with 6 samples.

Results

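Blood vessels of the embryonic pancreas are represented here by 37 mouse genes of the endothelium, the cell layer that lines vessels, and of the ligands that act on it. The genes were taken from a list of symbols that uses no measured value. The list was nevertheless chosen with earlier results of these data known. All 37 were found by Ensembl identifier among the 37224 genes of the deposited count table. They comprise 16 endothelial markers, 5 receptor tyrosine kinases, 5 transcription factors, 3 arterial genes, the lymphatic marker *Lyve1*, and 7 genes that encode angiogenic ligands or the apelin receptor. The 16 are called surface and junction markers below, though a few, such as the secreted factor *Egfl7*, are neither. Gene expression was measured by RNA Seq in whole pancreata of wild-type (wt) embryos, strain C57/Bl6J, at 13.5 and 15.5 days post coitum (dpc). Each stage had 3 independent samples, each pooled from up to 3 embryos, and neither stage carried an allele or received a treatment. The comparison asks which of these genes changed in level across the interval in which acinar and endocrine differentiation begins on a large scale.

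Endothelial cells are held together by junction proteins such as VE-cadherin and sense vascular endothelial growth factors (VEGFs) and angiopoietins through receptor tyrosine kinases. ETS and SOX family transcription factors maintain their identity, and connexins of the gap junctions mark arteries. In the pancreas, vessels grow in step with the epithelium, which is itself a source of VEGF-A, and endothelial signals act in turn on the early pancreatic epithelium. Fewer endothelial cells and less RNA per endothelial cell cannot be told apart in samples of whole organs.

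The total count per sample was 10546028 to 16389237. A normalised count is a count scaled by TMM factors (0.847 to 1.08) to a common library size. A gene was called when its adjusted p was at or below 0.05 in edgeR's quasi-likelihood test over the 15578 genes that passed a filter on low counts. The tissue label was checked on markers. The summed level of 10 pancreatic epithelium markers was 2252 to 2379 counts per 1000000 (CPM) at 13.5 dpc and 2900 to 3591 CPM at 15.5 dpc, and that of 10 acinar markers 4930 to 5991 and 30930 to 73840 CPM. Along exon length, 1 pair of libraries was set side by side, and the other pairs were not. 15.5 dpc replicates 1 and 2 differed along exon length, so that genes up to 2621 exon bases had a median log2 ratio of replicate 1 over replicate 2 of 0.49 (5511 genes) and genes from 4293 exon bases one of -0.41 (5888 genes). For many of the 37 genes the fold change moved with these libraries, and values without them are given for those whose call they changed.

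Between 13.5 and 15.5 dpc, 6 of the 37 genes rose and none was called lower. The genes that rose were *Apln*, *Gja4*, *Gja5*, *Cd34*, *Esam* and *Vegfb*, with log2 fold changes of 0.35 to 0.76 in edgeR's test. Among all genes tested, 22.3% were called, 11.6% higher and 10.7% lower, so that the 16.2% called among the 37 genes was a smaller share than that of calls in either direction and a larger one than that of higher calls. The same shares of all genes stand beside the counts of edgeR's calls in the classes and other lists below. All 6 genes that rose had a positive fold change under every normalisation tried, but scaled by library size alone 5 of them lost their call and only *Apln* kept it (0.55, adjusted p = 0.0321), while 26.2% of all genes were called in that fit. By library size alone, 1 of the 37 genes was called higher and 1 lower, beside 1133 higher and 2952 lower among all genes tested. The larger share of higher calls among the 37 genes was thus not kept under that scaling. All 37 passed the filter on low counts. At an unadjusted p at or below 0.05, 11 of the 37 were higher and 1, the ETS factor *Fli1*, was lower, where 20.2% of all genes tested were higher and 18.9% lower. DESeq2 called 7 higher and 1 lower, again *Fli1*, beside 15.2% of all genes higher and 12.2% lower. The median log2 fold change of the 37 genes was 0.14, beside -0.01 over all genes tested, and -0.06 beside -0.22 scaled by library size alone. The fold change was positive for 29 genes and negative for 8, and ranged from -0.53 (*Fli1*) to 0.76 (*Apln*), with standard errors (SE) of 0.08 to 0.33. For 14 of the 37 genes there was no overlap between samples of different stage (37.8% of them), 12 higher and 2 lower at 15.5 dpc, where this was so for 46.4% of all genes tested, 22.8% higher and 23.6% lower. *Apln* was the single gene that also met the thresholds of the study's methods, namely a fold change under 0.6 or over 1.6, over 100 normalised counts in 1 of the stages and an adjusted p of 0.1 at most.

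**Figure D1:**
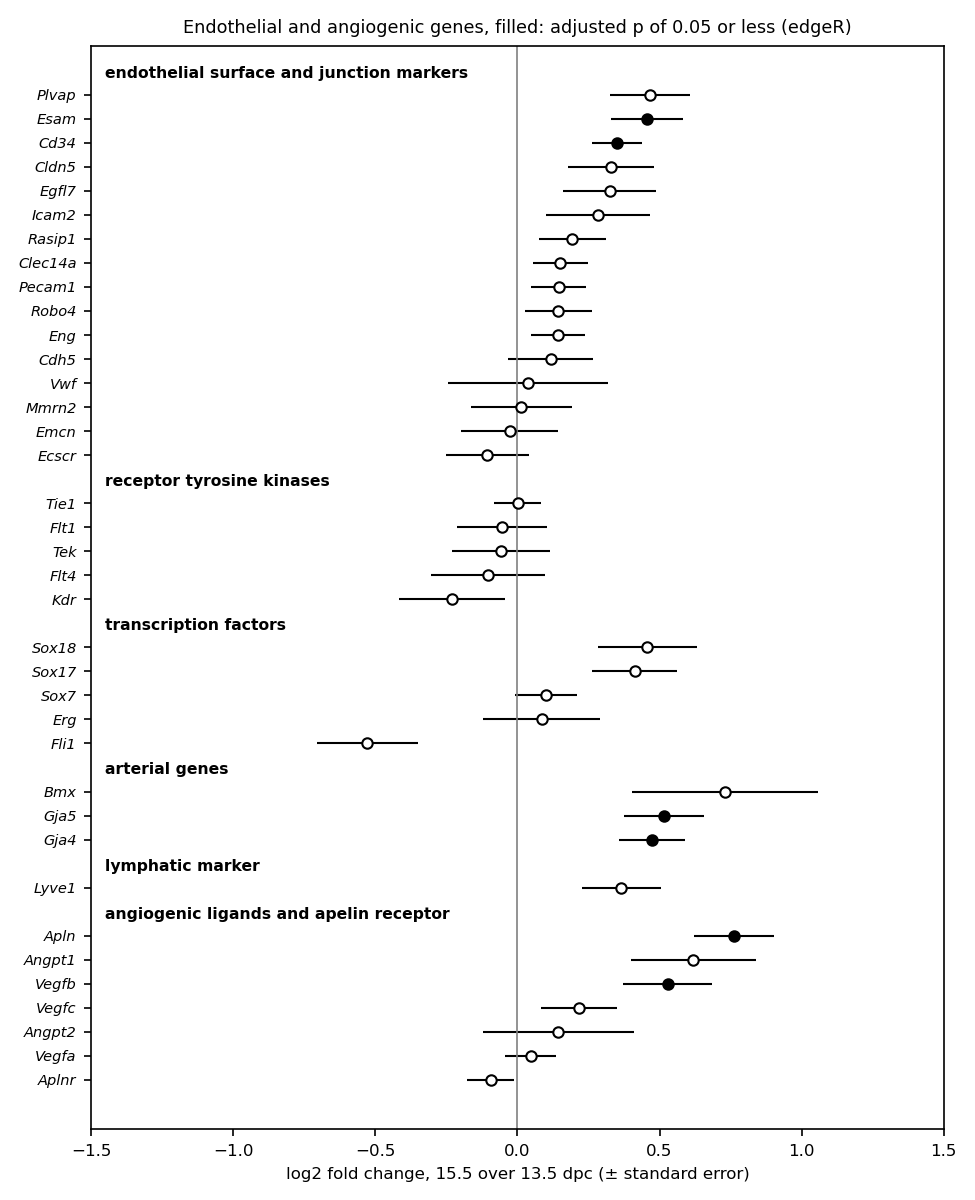
Log2 fold change of each of the 37 genes at 15.5 over 13.5 dpc, by class, as points with bars of 1 standard error (edgeR, 3 samples per stage); filled points mark an adjusted p at or below 0.05. The 6 filled points lie between 0.35 and 0.76, the receptor tyrosine kinases lie between -0.23 and 0.00, and *Fli1* is lowest at -0.53.

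The 6 calls depended on single samples. Without 13.5 dpc replicate 1, without 13.5 dpc replicate 2, or without 15.5 dpc replicate 3, edgeR called 0 of the 37 genes, although 8, 11 and 10 of them respectively had an unadjusted p at or below 0.05, and the share of all genes called fell as well, to 7.83%, 8.45% and 9.05%. Without 13.5 dpc replicate 3, only *Apln* of the 37 was called, beside 8.88% of all genes. Without 15.5 dpc replicate 1 there were 8 calls, all higher, and without 15.5 dpc replicate 2 there were 15, 13 higher and 2 lower, beside 26.9% and 48% of all genes. The number of calls among the 37 genes and among all genes was lower, or higher, in the same fits. With the replicate number as a block, *Apln* alone was called, beside 17.2% of all genes. The 6 genes were among the called genes in the fit without 15.5 dpc replicate 1 and in that without replicate 2, and each kept a positive fold change in all 6 fits without a sample.

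*Apln*, which encodes apelin, a peptide that sprouting endothelial cells secrete, showed the largest rise (chrX:48025146-48034853 of mm10, minus strand). In replicates 1, 2 and 3 it measured 263, 288 and 366 normalised counts at 13.5 dpc and 530.0, 491 and 538 at 15.5 dpc. Each 15.5 dpc sample exceeded each 13.5 dpc sample. The log2 fold change was 0.76 (SE 0.14, adjusted p = 0.00983, edgeR). It ranged from 0.66 to 0.91 when single samples were left out, with adjusted p-values of 0.0518 and 0.0571 without 13.5 dpc replicates 1 and 2, and 0.0511 without 15.5 dpc replicate 3.

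The apelin receptor gene *Aplnr*, a G protein-coupled receptor of endothelial cells (chr2:85136360-85139922, plus strand), did not follow its ligand. It measured 1482.5, 1454 and 1466 normalised counts at 13.5 dpc and 1311, 1421 and 1393 at 15.5 dpc. The 15.5 dpc samples all lay below the 13.5 dpc samples, but by little, and the log2 fold change of -0.09 (SE 0.08, adjusted p = 0.418, edgeR) was not called. The ratio of *Apln* to *Aplnr*, in CPM per exon length, was 0.236 ± 0.042 at 13.5 dpc and 0.428 ± 0.034 at 15.5 dpc (SD, n = 3), 1.82-fold higher (two-sided exact permutation test, p = 0.1, the smallest that 3 samples against 3 allow; 0.2 after Benjamini-Hochberg adjustment over 6 ratios). The ratio separated the stages, from 0.201 to 0.282 at 13.5 dpc and from 0.391 to 0.458 at 15.5 dpc.

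The sequences before the transcription start are shown for the genes that rose. *Erg* and *Fli1* on the list encode ETS factors, and a form of the letters these factors bind can be looked for there. A RefSeq promoter entry (GRCm38.p6) was matched for 5 of these 6 genes, and for 21 of the 37 genes, which have 26 entries in all. Each line gives the 250 bases before the start, 5′ to 3′ on the strand of the gene. The only form of the ETS core searched for, AGGAAG or its reverse complement CTTCCT, is in capitals. The regions are chrX:48034854-48035103 (minus strand) for *Apln*, chr4:127314040-127314289 (minus strand) for *Gja4*, chr1:194938571-194938820 (plus strand) for *Cd34*, chr3:97032152-97032401 (plus strand) for *Gja5* and chr19:6987652-6987901 (minus strand) for *Vegfb*.
Apln: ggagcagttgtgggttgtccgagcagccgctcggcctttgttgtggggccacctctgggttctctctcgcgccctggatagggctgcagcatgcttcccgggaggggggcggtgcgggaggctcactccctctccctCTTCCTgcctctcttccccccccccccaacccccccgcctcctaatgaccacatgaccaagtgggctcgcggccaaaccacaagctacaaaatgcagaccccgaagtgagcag
Gja4: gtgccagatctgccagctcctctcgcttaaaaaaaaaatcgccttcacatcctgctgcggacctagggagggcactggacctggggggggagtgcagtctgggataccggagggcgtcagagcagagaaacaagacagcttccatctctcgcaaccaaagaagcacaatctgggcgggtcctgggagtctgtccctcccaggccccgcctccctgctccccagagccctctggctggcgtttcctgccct
Cd34: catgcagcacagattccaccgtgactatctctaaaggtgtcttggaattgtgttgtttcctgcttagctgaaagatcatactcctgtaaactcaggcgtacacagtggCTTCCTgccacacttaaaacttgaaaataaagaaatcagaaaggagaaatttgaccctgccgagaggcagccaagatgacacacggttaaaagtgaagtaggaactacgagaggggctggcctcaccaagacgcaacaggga
Gja5: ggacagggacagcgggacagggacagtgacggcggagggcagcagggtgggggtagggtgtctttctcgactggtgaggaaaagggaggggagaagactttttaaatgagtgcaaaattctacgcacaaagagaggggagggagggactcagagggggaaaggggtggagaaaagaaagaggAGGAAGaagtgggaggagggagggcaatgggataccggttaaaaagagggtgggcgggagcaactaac
Vegfb: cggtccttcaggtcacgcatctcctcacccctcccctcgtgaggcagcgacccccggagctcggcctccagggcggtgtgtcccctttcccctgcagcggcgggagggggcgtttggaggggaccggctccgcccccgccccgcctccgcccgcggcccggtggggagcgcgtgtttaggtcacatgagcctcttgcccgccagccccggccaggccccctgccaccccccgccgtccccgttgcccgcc

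This form of the ETS core stood once in the sequences of *Apln*, *Cd34* and *Gja5*, with its first base 113, 142 and 68 bases before the start (written -113, -142 and -68). It was not found in those of *Gja4* and *Vegfb*. Shorter or other forms were not searched for, so any of the 5 windows may hold further ones. On both strands, 29.5% of the 32851 promoter entries hold AGGAAG or CTTCCT in such a window, and so did 12 of the 26 entries of the listed genes. The SOX core ACAAT, or ATTGT, was found in the windows of *Gja4* and *Cd34*, in 8 of the 26 entries and in 27.7% of all entries. *Vegfb* held 4 GC boxes (GGGCGG or CCGCCC), and *Apln*, *Gja4* and *Gja5* held 1 each. GC boxes occur in 32.7% of all entries and in 13 of the 26. Of the 250 bases, 76.4% were G or C in *Vegfb* and 46.4% in *Cd34*. The hypoxia response core ACGTG, or CACGT, was absent from these 5 windows and present in 2 of the 26 entries and in 16.6% of all entries. None of the ETS cores in capitals overlapped a SOX core or a GC box. A match describes the letters of the window and was not tested as a binding site.

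Of the VEGF ligands, 1 was called. *Vegfb*, which encodes a ligand of the receptor Flt1 (chr19:6982473-6987651, minus strand), measured 611, 631 and 676 normalised counts at 13.5 dpc and 1149, 759.8 and 864 at 15.5 dpc. The stages did not overlap, and 15.5 dpc replicate 1 was the highest. The log2 fold change was 0.53 (SE 0.16, adjusted p = 0.0499, edgeR), close to the threshold, and it was 0.34 (adjusted p = 0.0262) without 15.5 dpc replicate 1, 0.66 (adjusted p = 0.00389) without 15.5 dpc replicate 2, 0.35 (adjusted p = 0.0216) with the trend with exon length removed, and 0.30 (adjusted p = 0.105) scaled by library size alone. The call was lost in 9 of 15 other settings, among them the upper quartile scaling (adjusted p = 0.0549), a minimum of 10 counts in every sample (0.0526) and the replicate number as a block (0.0698). The ratio of *Vegfb* to *Vegfa* was 1.42-fold higher at 15.5 dpc (two-sided exact permutation test, p = 0.1; 0.2 after adjustment).

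*Vegfa*, the main growth factor of vessels, made largely by cells outside the endothelium (chr17:46016993-46032377, minus strand), measured 1665, 1610.2 and 1689 normalised counts at 13.5 dpc and 1569, 1799.8 and 1754 at 15.5 dpc. The stages overlapped. Its log2 fold change was 0.05 (SE 0.09, adjusted p = 0.729, edgeR), with a 95% confidence interval of -0.17 to 0.26. *Vegfc*, the growth factor of lymphatic vessels, was much lower in counts, with 99.3, 108 and 114 at 13.5 dpc and 123, 136 and 115 at 15.5 dpc. The lowest 15.5 dpc sample lay only just above the highest 13.5 dpc sample, and the log2 fold change of 0.22 (SE 0.13, adjusted p = 0.261, edgeR) was not called.

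Per exon length, *Vegfb* and *Vegfa* were alike at 13.5 dpc, at 31.5 ± 1.63 and 30.5 ± 0.748 CPM per 1000 exon bases (SD, n = 3), and *Vegfc* was at 4.51 ± 0.315. At 15.5 dpc *Vegfb* was at 45.6 ± 9.93 on this scale, *Vegfa* at 31.5 ± 2.25 and *Vegfc* at 5.24 ± 0.453. The ratio of *Vegfb* to *Vegfa* was 0.982, 1.05 and 1.07 at 13.5 dpc and 1.96, 1.13 and 1.32 at 15.5 dpc. These ratios did not overlap between the stages (two-sided exact permutation test, p = 0.1; 0.2 after adjustment), and the highest was that of 15.5 dpc replicate 1. The ratio of *Vegfc* to *Vegfa* overlapped between the stages (0.148 ± 0.01 and 0.167 ± 0.016, SD, n = 3, p = 0.3, exact permutation test).

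None of the 5 receptor tyrosine kinase genes was called, whether by edgeR or by DESeq2, and 0 of the 5 had an unadjusted p at or below 0.05. Of all genes tested, edgeR called 22.3%, and at an unadjusted p at or below 0.05 20.2% were higher and 18.9% lower. With only 5 genes, 0 calls cannot be told apart from these shares. Their median log2 fold change was -0.06. *Kdr*, which encodes the main signalling receptor for VEGF-A (chr5:75932827-75978458, minus strand), measured 1165, 1195 and 1325 normalised counts at 13.5 dpc and 789, 1349.8 and 997 at 15.5 dpc. The 15.5 dpc values spanned the 13.5 dpc ones, with replicate 1 lowest and replicate 2 highest. The log2 fold change was -0.23 (SE 0.19, adjusted p = 0.384, edgeR), with a 95% confidence interval of -0.67 to 0.21. This value rested on single libraries, since it was -0.45 and called lower (adjusted p = 0.0178) without 15.5 dpc replicate 2, but -0.063 (adjusted p = 0.751) without 15.5 dpc replicate 1 and -0.05 (adjusted p = 0.718) with the trend with exon length removed.

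*Flt1*, whose product binds VEGF-A and VEGF-B and can act as a decoy (chr5:147561604-147726011, minus strand), measured 349, 382 and 423 normalised counts at 13.5 dpc and 295, 434 and 381.5 at 15.5 dpc. The stages overlapped, with 15.5 dpc replicate 1 again lowest. Its log2 fold change was -0.05 (SE 0.16, adjusted p = 0.819, edgeR). The ratio of *Flt1* to *Kdr* per exon length was 0.188, 0.201 and 0.201 at 13.5 dpc and 0.235, 0.202 and 0.24 at 15.5 dpc. It separated the stages by the margin of 15.5 dpc replicate 2 alone, which lay just above the 13.5 dpc samples (two-sided exact permutation test, p = 0.1; 0.2 after adjustment). The ratio of *Vegfa* to *Kdr* was 2.29 ± 0.13 at 13.5 dpc and 2.87 ± 0.56 at 15.5 dpc (SD, n = 3) and overlapped (p = 0.3, exact permutation test). *Flt4*, the receptor for VEGF-C, had a log2 fold change of -0.10 (SE 0.20, adjusted p = 0.725, edgeR).

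The angiopoietin receptor gene *Tek*, also known as Tie2 (chr4:94739289-94874976, plus strand), measured 261.5, 261 and 284 normalised counts at 13.5 dpc and 237, 326 and 209 at 15.5 dpc, a log2 fold change of -0.06 (SE 0.17, adjusted p = 0.823, edgeR). Its 15.5 dpc samples lay on both sides of the 13.5 dpc samples. *Tie1*, a related receptor with no well-established ligand of its own (chr4:118471191-118490061, minus strand), had the fold change closest to 0 of the 37 genes, with 866.5, 855 and 879 normalised counts at 13.5 dpc and 891, 865 and 846 at 15.5 dpc. Its log2 fold change was 0.00 (SE 0.08, adjusted p = 0.994, edgeR), with a 95% confidence interval of -0.19 to 0.19.

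Of the angiopoietins, *Angpt1*, the activating ligand of Tek that is made by cells around the vessels (chr15:42424727-42676977, minus strand), measured 62.0, 90.9 and 67.5 normalised counts at 13.5 dpc and 119, 133 and 85.6 at 15.5 dpc. The third sample of 15.5 dpc lay below the second of 13.5 dpc. The log2 fold change of 0.62 (SE 0.22, adjusted p = 0.0829, edgeR) was the third highest of the 37 genes but was not called. It was 0.69 and called (adjusted p = 0.0361) with the trend with exon length removed. Pericytes make *Angpt1*, and the summed level of 12 pericyte and smooth muscle markers, all tested, was 692.9 to 761.9 CPM at 13.5 dpc and 581.4 to 671 CPM at 15.5 dpc. Of these 12, *Acta2* and *Tagln* were called higher and *Rgs5* and *Kcnj8* lower, and their part in the result was not tested.

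*Angpt2*, the context-dependent antagonist of Tek (chr8:18690263-18741562, minus strand), was one of the least abundant genes, with 46.5, 32.6 and 51.7 normalised counts at 13.5 dpc and 34.6, 48.1 and 61.7 at 15.5 dpc. The stages overlapped, and the log2 fold change was 0.14 (SE 0.27, adjusted p = 0.712, edgeR). The ratio of *Angpt1* to *Angpt2* per exon length ranged from 1.13 to 2.42 at 13.5 dpc and from 1.2 to 2.98 at 15.5 dpc (p = 0.3, exact permutation test, two-sided).

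**Figure D2:**
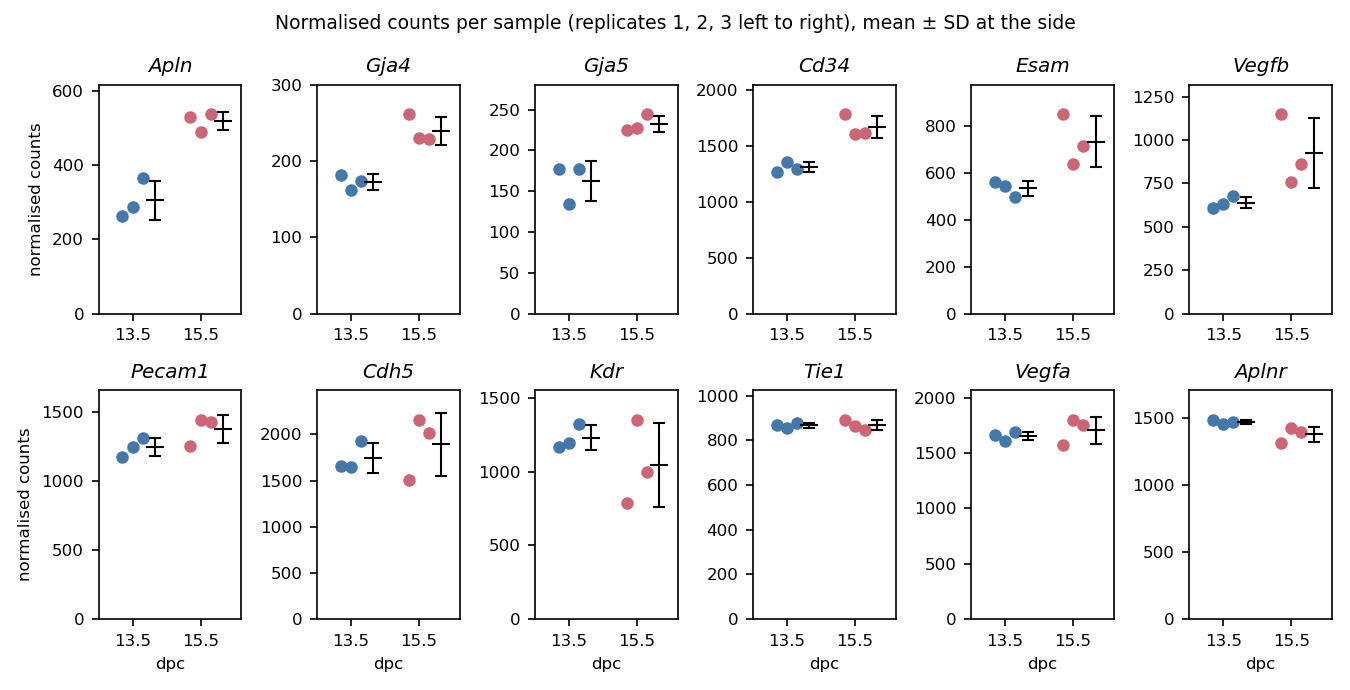
Normalised counts of 12 of the genes in each of the 6 samples, with replicates 1, 2 and 3 from left to right and the mean ± SD (n = 3) beside them; the vertical axes start at 0. The upper row holds the 6 genes that rose, in which all 15.5 dpc samples lie above all 13.5 dpc samples, and the lower row holds *Pecam1*, *Cdh5*, *Kdr*, *Tie1*, *Vegfa* and *Aplnr*, which were not called.

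Of the 3 arterial genes, 2 rose, where 11.6% of all genes tested were called higher, and 3 genes are too few to read a share from. *Gja4*, which encodes connexin 37, a gap junction protein of arterial endothelium (chr4:127311421-127314039, minus strand), measured 182, 162 and 174.5 normalised counts at 13.5 dpc and 262, 230.1 and 229 at 15.5 dpc. *Gja5*, which encodes connexin 40 (chr3:97032416-97053634, plus strand), measured 177, 135 and 177 at 13.5 dpc and 226, 228 and 244 at 15.5 dpc. In both genes the 15.5 dpc samples all lay above the 13.5 dpc samples, and the 15.5 dpc samples of *Gja5* were close together.

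The log2 fold change was 0.47 for *Gja4* (SE 0.12, adjusted p = 0.0266, edgeR) and 0.52 for *Gja5* (SE 0.14, adjusted p = 0.0384, edgeR). Both stayed positive scaled by library size alone, at 0.26 (adjusted p = 0.123) and 0.30 (adjusted p = 0.17). With no filter on low counts *Gja5* was at 0.49 (adjusted p = 0.0519). When single samples were left out the adjusted p was 0.0101 to 0.124 for *Gja4* and 0.0188 to 0.136 for *Gja5*. In a later annotation, 13.2% of the 50-base windows of *Gja5* transcripts were shared with *Zfp697*, though no exon of *Gja5* in the deposited table overlapped another gene. *Bmx*, a cytoplasmic tyrosine kinase of arterial endothelium, had the fewest reads of the 37 genes, 9 to 19 counts at 13.5 dpc and 11 to 20 at 15.5 dpc. Its log2 fold change was 0.73 (SE 0.33, adjusted p = 0.143, edgeR), and it was not called.

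The arterial genes of the wider list went both ways. Of 12 arterial and endothelial Notch genes outside the 37, *Dll4*, the Notch ligand of arterial and sprouting cells, rose (log2 fold change 0.54, adjusted p = 0.0125, edgeR), while the Notch target *Hey1* (-0.60, adjusted p = 0.0112, edgeR) and *Gja1*, which encodes connexin 43 (-0.79, adjusted p = 0.0158, edgeR), fell. Their median log2 fold change was -0.22. *Hey1* and *Gja1* are not restricted to endothelium. Of 9 venous and lymphatic genes tested of 10, 1 was called. It was *Nr2f2*, a regulator of venous identity that mesenchymal cells also express, and it fell (log2 fold change -1.09, adjusted p = 0.00163, edgeR). The 10 mesenchyme markers, of which 2 were called higher and 5 lower, had a summed level of 7560 to 8486 CPM at 13.5 dpc and 5681 to 8229 CPM at 15.5 dpc, and their part in these results was not tested.

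Among the 16 surface and junction markers, 2 rose (12.5%), where 11.6% of all genes tested were called higher. Their median log2 fold change was 0.15. *Cd34*, a sialomucin of the endothelial surface (chr1:194938821-194961292, plus strand), measured 1273, 1361 and 1299 normalised counts at 13.5 dpc and 1785, 1606.5 and 1618 at 15.5 dpc. *Esam*, an immunoglobulin-type adhesion molecule of endothelial junctions (chr9:37528078-37538319, plus strand), measured 560.4, 544 and 499.9 at 13.5 dpc and 851, 637 and 715 at 15.5 dpc. Neither gene overlapped between the stages, and 15.5 dpc replicate 1 was the highest for both. The log2 fold changes were 0.35 for *Cd34* (SE 0.09, adjusted p = 0.0297, edgeR) and 0.46 for *Esam* (SE 0.13, adjusted p = 0.0406, edgeR). Without 15.5 dpc replicate 1 they were 0.30 (adjusted p = 0.0204) and 0.34 (adjusted p = 0.0287), and scaled by library size alone 0.13 (adjusted p = 0.268) and 0.23 (adjusted p = 0.131). With no filter on low counts *Cd34* also lost its call (0.32, adjusted p = 0.064).

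*Cd34* and *Esam* are also expressed by haematopoietic progenitors, and *Esam* by platelets. The summed level of the 7 haematopoietic progenitor markers tested of 8 was 101.2 to 113.5 CPM at 13.5 dpc and 99.3 to 126 CPM at 15.5 dpc, with 1, *Runx1*, called, and lower. That of the 6 megakaryocyte and platelet markers tested of 10 was 29.8 to 32.4 and 26.5 to 39.3 CPM, with *Ppbp* called lower. Both sums overlapped between the stages, and their part in the result was not tested. Other possible sources, mesenchymal cells among them, were not tested either. Of the 10 mesenchyme markers, 2 were called higher, among them *Dcn* (log2 fold change 0.61, adjusted p = 0.0127, edgeR), and 5 lower.

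The most used endothelial markers did not pass the test. *Pecam1*, also known as CD31 (chr11:106654217-106750628, minus strand), measured 1176, 1244 and 1311 normalised counts at 13.5 dpc and 1255, 1441 and 1429 at 15.5 dpc, a log2 fold change of 0.145 (SE 0.10, adjusted p = 0.298, edgeR). *Cdh5*, which encodes VE-cadherin (chr8:104101625-104144502, plus strand), measured 1659, 1648 and 1928 at 13.5 dpc and 1506, 2156 and 2012 at 15.5 dpc, a log2 fold change of 0.12 (SE 0.15, adjusted p = 0.583, edgeR). The stages overlapped for both, and 15.5 dpc replicate 1 was the lowest of its stage for both. The 95% confidence intervals were -0.08 to 0.37 and -0.23 to 0.46. *Cdh5* was at 0.26 (adjusted p = 0.074) without 15.5 dpc replicate 1 and at 0.026 (adjusted p = 0.888) without replicate 2 of that stage. *Pecam1* was at 0.22 and called (adjusted p = 0.0465) with the trend with exon length removed. Scaled by library size alone it was at -0.062 (adjusted p = 0.731).

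The other 12 surface and junction markers had log2 fold changes between -0.11 (*Ecscr*) and 0.47 (*Plvap*). *Plvap*, which forms the diaphragms of fenestrated capillaries, was nearest to a call. It measured 1167, 1103 and 1105.5 normalised counts at 13.5 dpc and 1861, 1274 and 1527 at 15.5 dpc. The stages did not overlap, with 15.5 dpc replicate 1 far above the rest, and the adjusted p was 0.0534 (edgeR). *Plvap* was called by DESeq2 (log2 fold change 0.48, adjusted p = 0.022), with the trend with exon length removed (0.34, adjusted p = 0.0151) and without 15.5 dpc replicate 1 (0.32, adjusted p = 0.0384) or 2 (0.60, adjusted p = 0.0025).

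The stages also did not overlap for *Clec14a*, at a log2 fold change of 0.15 (adjusted p = 0.282, edgeR). The tight junction gene *Cldn5* was at 0.33, the secreted vascular factor *Egfl7* at 0.32, *Icam2* at 0.28, *Rasip1* at 0.19, *Robo4* at 0.14 and the TGF-beta co-receptor *Eng* at 0.14, with adjusted p-values of 0.152 to 0.388. Single libraries decided several of these values. Without 15.5 dpc replicate 1, *Cldn5*, *Egfl7*, *Icam2* and *Rasip1* were at 0.16, 0.14, 0.10 and 0.10, with adjusted p-values of 0.27 to 0.635. Without 15.5 dpc replicate 2 they were at 0.46, 0.49, 0.45 and 0.30 and were called, with adjusted p-values of 0.0188, 0.00952, 0.0302 and 0.0403. Without 15.5 dpc replicate 3, *Robo4* was at 0.064 and *Eng* at 0.091. Values for *Emcn* (-0.03), *Ecscr* (-0.11), *Mmrn2* (0.01) and *Vwf* (0.04) were closest to 0, and each changed sign under at least 1 other setting. *Vwf*, the gene of von Willebrand factor, varied most among the 15.5 dpc samples, with 227, 507 and 297 normalised counts. In the deposited table, 20.4% of the exon bases of *Rasip1* overlap exons of *Izumo1* on the same strand, 9.41% of those of *Egfl7* overlap *Gm20532* and *Mir126a*, and 3.2% of those of *Eng* overlap *Ak1*. On the opposite strand other genes overlap 6.93% of the exon bases of *Rasip1*, 3.69% of *Ecscr*, 1.79% of *Egfl7* and 1.58% of *Eng*. Whether the counting used the strand is not given in the sources used here, and the counts of these 4 genes are uncertain.

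None of the 5 transcription factor genes was called by edgeR, where 22.3% of all genes tested were called. At an unadjusted p at or below 0.05, 2 were higher and 1 lower, and DESeq2 called 1 lower. *Sox18* and *Sox17*, which act together with *Sox7* in vessel formation, had log2 fold changes of 0.46 (adjusted p = 0.0972) and 0.41 (adjusted p = 0.0866), and *Sox7* one of 0.10 (adjusted p = 0.507). *Sox18* measured 414, 368 and 414.5 normalised counts at 13.5 dpc and 702, 449 and 495 at 15.5 dpc, and *Sox17* 131, 127 and 145 and 213, 166 and 159.9. For both genes the stages did not overlap and 15.5 dpc replicate 1 was the highest. Without that sample the log2 fold changes fell to 0.24 (adjusted p = 0.106) for *Sox18* and 0.28 (adjusted p = 0.139) for *Sox17*, whereas without 15.5 dpc replicate 2 both were called, at 0.60 (adjusted p = 0.0114) and 0.48 (adjusted p = 0.0339).

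Neither ETS factor was called by edgeR. *Erg* measured 138.5, 143 and 151 normalised counts at 13.5 dpc and 104, 172 and 181 at 15.5 dpc, a log2 fold change of 0.085 (SE 0.21, adjusted p = 0.782, edgeR), with 15.5 dpc replicate 1 the lowest of the 6 samples. The sign of *Erg* turned scaled by library size alone (-0.11) and without 15.5 dpc replicate 3 (-0.054), and it was at 0.29 (adjusted p = 0.105) without 15.5 dpc replicate 1. *Fli1* (chr9:32422208-32541389, minus strand) measured 278, 263 and 317.5 at 13.5 dpc and 155, 245 and 193 at 15.5 dpc, a log2 fold change of -0.53 (SE 0.18, adjusted p = 0.0706, edgeR). All 15.5 dpc samples of *Fli1* lay below the 13.5 dpc samples. It was called lower by DESeq2 (-0.51, adjusted p = 0.0462), scaled by library size alone (-0.73, adjusted p = 0.0456) and without 15.5 dpc replicate 2 (-0.70, adjusted p = 0.00557). Without 15.5 dpc replicate 1 it was -0.38 (adjusted p = 0.0725) and without 13.5 dpc replicate 3 -0.45 (adjusted p = 0.224). *Fli1* is also expressed by blood cells, and 3 of 11 macrophage markers (*Adgre1*, *Csf1r* and *Cx3cr1*) and 1 of 7 haematopoietic progenitor markers (*Runx1*, -1.27) were called lower. Their part in the result was not tested.

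Of 15 further endothelial and haemangioblast transcription factor genes tested of 16, 1 rose and 3 fell. *Klf2*, which responds to blood flow, rose (log2 fold change 0.66, adjusted p = 0.0173, edgeR). *Hhex* (-0.60, adjusted p = 0.00458), *Foxf1* (-0.98, adjusted p = 0.0278) and the ETS factor gene *Elk3* (-0.33, adjusted p = 0.0432) fell in edgeR's test. *Hhex* is also a gene of the pancreatic and hepatic epithelium and *Foxf1* one of gut mesenchyme.

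*Lyve1*, a hyaluronan receptor of lymphatic endothelium and of some macrophages (chr7:110850607-110862953, minus strand), measured 238, 303 and 283 normalised counts at 13.5 dpc and 309, 394 and 358 at 15.5 dpc. The stages did not overlap, and the log2 fold change of 0.37 (SE 0.14, adjusted p = 0.097, edgeR) was not called. It was 0.45 (adjusted p = 0.0238) without 15.5 dpc replicate 1, 0.29 (adjusted p = 0.108) without 15.5 dpc replicate 2, and 0.16 (adjusted p = 0.492) scaled by library size alone. The summed level of 11 macrophage markers, all tested, was 224.5 to 229 CPM at 13.5 dpc and 166.5 to 185.6 CPM at 15.5 dpc, and its part in the result was not tested.

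**Figure D3:**
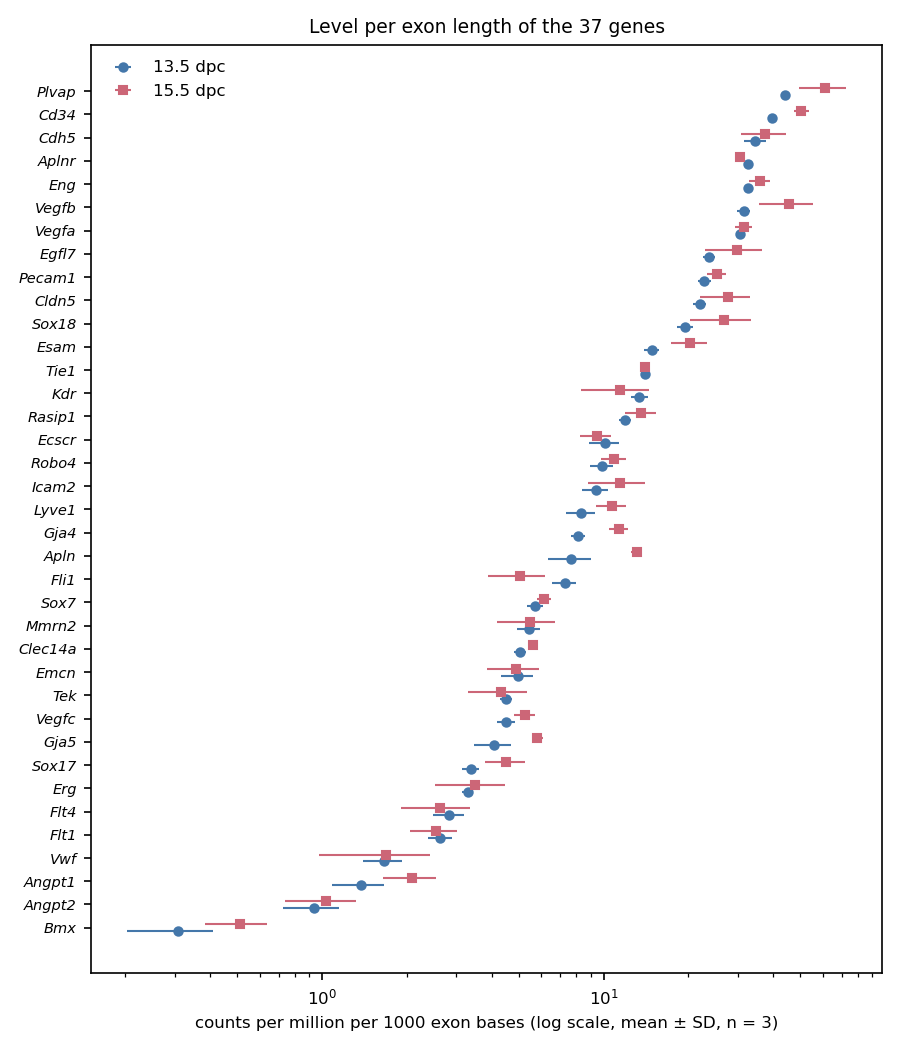
Level of each of the 37 genes in CPM per 1000 exon bases on a log axis, as the mean ± SD of 3 samples at 13.5 dpc (circles) and 15.5 dpc (squares), in the order of the 13.5 dpc mean. The order runs from *Bmx* at 0.307 to *Plvap* at 44.2 at 13.5 dpc, and *Apln* is among the genes whose stages are furthest apart.

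Per exon length, the levels of the 37 genes at 13.5 dpc spanned 0.307 ± 0.104 CPM per 1000 exon bases for *Bmx* to 44.2 ± 1.43 for *Plvap* (SD, n = 3). *Plvap*, *Cd34* (39.6 ± 1.36) and *Cdh5* (34.6 ± 3.15) were highest. *Cdh5*, *Aplnr* (32.6 ± 0.316), *Eng* (32.5 ± 0.892) and *Vegfb* (31.5 ± 1.63) followed each other within their spread. *Kdr* (13.4 ± 0.924) stood well above *Flt4* (2.83 ± 0.356) and *Flt1* (2.63 ± 0.254), and *Tie1* (14.0 ± 0.196) above *Tek* (4.51 ± 0.22). At 15.5 dpc *Plvap* (61.0 ± 11.6) and *Cd34* (50.4 ± 3.02) remained the highest of the 37, followed by *Vegfb*. The exon length counts every annotated exon of a gene, so that genes with long alternative exons read low on this scale.

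The summed level of the 16 surface and junction markers was 913, 919.5 and 941 CPM at 13.5 dpc and 1111, 1046 and 1090.0 CPM at 15.5 dpc, a log2 ratio of 0.23. The sums did not overlap between the stages. This did not extend to the endothelial lists outside the 37 genes. The sum of the 20 other endothelial markers was 526.6 to 585.3 CPM at 13.5 dpc and 462.5 to 589.3 CPM at 15.5 dpc, and overlapped (log2 ratio -0.06). The 12 arterial and endothelial Notch genes, at 695.9 to 725.1 and 528.1 to 653.8 CPM (log2 ratio -0.24), and the 9 venous and lymphatic genes, at 731.5 to 762.6 and 437.9 to 621.1 CPM (log2 ratio -0.50), had lower sums in all samples of 15.5 dpc. Both sums include abundant genes that are not restricted to endothelium. *Gja1* had a mean of 1581 normalised counts at 13.5 dpc and 910.4 at 15.5 dpc, and *Nr2f2* one of 2720 and 1276. Whether the lower sums concern the endothelium was not tested. For the 16 markers, scaled by library size alone, the log2 ratio was 0.01, and this scaling also moved the median of all genes from -0.01 to -0.22, so that relative to all genes the sum was higher under both. The summed levels of the 3 arterial genes (24.8 to 29.1 against 37.8 to 39.8 CPM) and of the ligands with *Aplnr* (333.5 to 350.6 against 379 to 382.6 CPM) did not overlap either, whereas that of the receptor tyrosine kinases did (229.5 to 256.6 against 193 to 264 CPM). Of the lists of other cells in the plot of summed levels that are not given elsewhere, edgeR called 1 of 8 erythroid markers higher and 3 lower, 2 of 6 mesothelium markers higher and 1 lower, 4 of 10 pancreatic epithelium markers higher and 2 lower, and 4 of 11 endocrine markers higher and 2 lower. Of the 10 acinar markers, 9 were called higher. The part of these cells in the results was not tested.

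**Figure D4:**
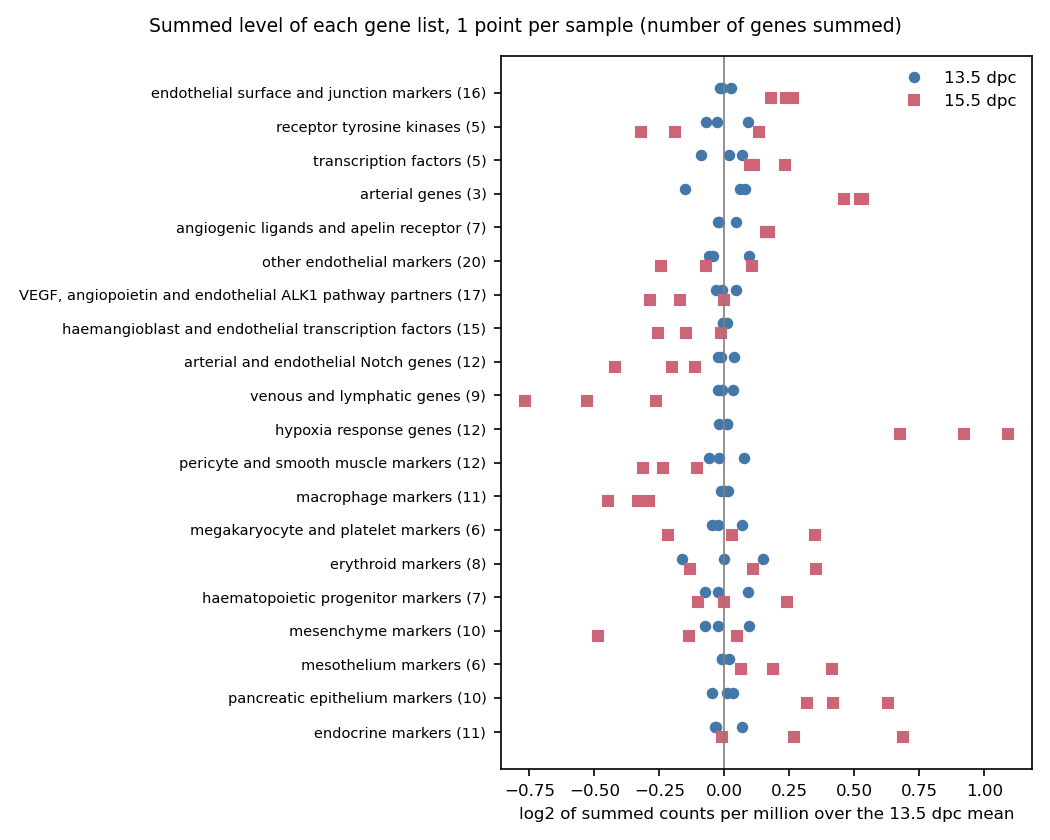
Summed CPM of each gene list in each sample, as the log2 ratio to the mean of the 3 samples of 13.5 dpc (circles for 13.5 dpc, squares for 15.5 dpc); the number of genes summed is in brackets, and acinar markers, which lie off the scale, and the single gene *Lyve1* are left out. The 16 endothelial surface and junction markers and the 3 arterial genes lie higher at 15.5 dpc in all 3 samples, the 20 other endothelial markers overlap, and the arterial and endothelial Notch genes, the venous and lymphatic genes and the macrophage markers lie lower.

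To set each gene beside the other endothelial markers rather than beside all genes, its level was divided by the summed level of the 16 markers, itself left out, a comparison chosen after seeing the data. On this scale 5 of the 37 genes were higher at 15.5 dpc in all samples, 5 were lower in all samples and 27 overlapped, where 53.3% of all genes tested did not overlap. The genes that were higher were *Apln* (log2 difference 0.55), *Gja5* (0.30), *Vegfb* (0.28), *Gja4* (0.25) and *Cd34* (0.14), all among the 6 genes that rose. *Esam*, at 0.23, overlapped. The genes that were lower were *Fli1* (-0.78), *Ecscr* (-0.34), *Aplnr* (-0.32), *Tie1* (-0.23) and *Vegfa* (-0.18). Each of these 10 had p = 0.1 in the exact permutation test, two-sided, the smallest that 3 samples against 3 allow.

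The spread among the 15.5 dpc samples followed exon length within the 37 genes. Of the 10 genes with the fewest exon bases (1414 to 2621), 8 were higher in 15.5 dpc replicate 1 than in replicate 2, with a median log2 ratio of 0.44. Of the 10 with the most (4293 to 16064), 7 were lower in replicate 1, with a median of -0.33. The 4 longest genes, *Vwf*, *Flt1*, *Flt4* and *Kdr*, were lower in replicate 1 by log2 ratios of -1.16, -0.557, -0.669 and -0.775, and *Vegfb*, *Sox18*, *Cldn5* and *Icam2* were higher by 0.60, 0.64, 0.55 and 0.67. *Apln*, at 0.11, and *Gja5*, at -0.02, differed little between these samples. With the trend removed from each library, edgeR called 10 of the 37 genes, all higher, and these included the 6 genes above. This was a smaller share than the 32.5% of all genes called in that fit. The others were *Plvap*, *Angpt1*, *Pecam1* (log2 fold change 0.22, adjusted p = 0.0465) and *Sox17* (0.41, adjusted p = 0.0497).

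**Figure D5:**
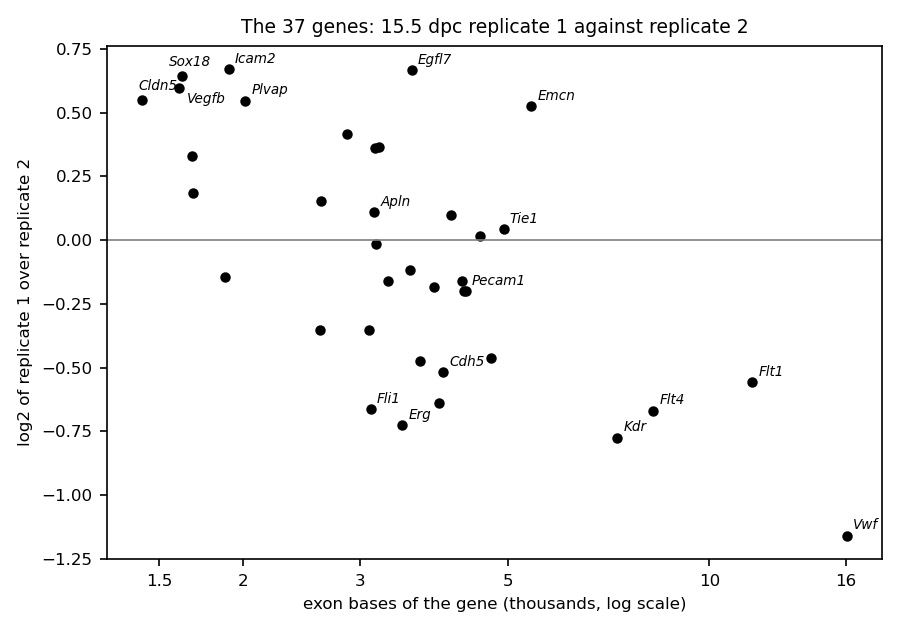
Log2 ratio of 15.5 dpc replicate 1 over replicate 2 of each of the 37 genes against its exon bases on a log axis, with 1 point per gene. Of the 10 shortest genes 8 lie above 0, among them *Icam2* (0.67), and the longest gene, *Vwf* (-1.16), lies lowest.

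Genes of the same pathways outside the 37 did not move in one direction. Of 20 other endothelial markers, 2 rose, 2 fell and 16 were not called, with a median log2 fold change of 0.00. *Gpihbp1*, which anchors lipoprotein lipase to capillaries, rose by 1.10 (adjusted p = 0.0119, edgeR) and the small GTPase gene *Rhoj* by 0.47 (adjusted p = 0.015, edgeR), while *Tspan18* (-0.66, adjusted p = 0.0354, edgeR) and *Sox13* (-0.48, adjusted p = 0.0429, edgeR) fell. Of 17 partners of the VEGF, angiopoietin and endothelial ALK1 pathways tested of 18, 1 rose and 3 fell. *Pdgfb*, by which endothelial cells recruit pericytes, rose by 0.48 (adjusted p = 0.0259, edgeR). *Angptl4*, an inhibitor of lipoprotein lipase, was at -0.91 (adjusted p = 0.00121, edgeR), and the adaptor *Shc2* and the phospholipase *Plcg1* were at -0.72 (adjusted p = 0.00981, edgeR) and -0.71 (adjusted p = 0.023, edgeR).

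*Vegfa* and *Apln* belong to the genes known to respond to low oxygen, and a list of 12 other such genes was set beside them. Of these, 7 rose (58.3%), where 11.6% of all genes tested were called higher. None of the 12 was called lower by edgeR (1 lower at an unadjusted p at or below 0.05, and 1 lower by DESeq2). Their median log2 fold change was 0.86, and the list does not hold every gene that responds to low oxygen. *Egln3*, a prolyl hydroxylase, rose by 2.39 (adjusted p = 0.000565, edgeR) and *Car9*, a carbonic anhydrase, by 2.13 (adjusted p = 0.000614, edgeR), while *Vegfa* was at 0.05. The summed level of the 12 genes was 978.7 to 998.9 CPM at 13.5 dpc and 1584 to 2112 CPM at 15.5 dpc. The part of these genes, several of which serve glycolysis in any cell, in the rise of *Apln* was not tested.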

How the data were processed

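RNA Seq was analysed for 6 samples, 3 of 13.5 dpc and 3 of 15.5 dpc wt pancreata. The authors enriched poly(A) RNA, prepared strand-specific libraries, aligned single-end reads to mm10 (GSNAP) and used featureCounts 1.4.6 to count those with a unique alignment on the genes of Ensembl 69. The deposited values are raw counts per gene, without normalisation. Whether the counting used the strand is not given in the sources used here. All 6 columns of per-sample values were used, and 0 were unmatched.

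Of 37224 identifiers, 35449 were paired with symbols from a GENCODE name table. The analysis used R 4.3.3 and edgeR 4.0.16, with DESeq2 1.42.0 as an alternative, while Python 3.11.15 and matplotlib 3.10.9 drew the figures. Genes were filtered with filterByExpr, normalised with TMM and compared between stages with the quasi-likelihood test over the 6 samples, without covariates, with Benjamini-Hochberg adjustment over all 15578 genes tested. The depth of 10546028 to 16389237 counts per sample limits the precision for genes of few counts, and the common coefficient of variation was 0.15. Pools of separate embryos served as replicates. Summed levels and levels per length use TMM-scaled CPM.

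The 37 genes, the other lists, the test and the alternatives were chosen with earlier results of these data known. Sample values are given for genes called and for *Pecam1*, *Cdh5*, *Kdr*, *Flt1*, *Tek*, *Tie1*, *Vegfa*, *Vegfb*, *Vegfc*, *Angpt1* and *Angpt2*. From other lists, at most 4 genes of the smallest adjusted p are named. Sample values of *Aplnr*, *Plvap*, *Fli1*, *Erg*, *Sox17*, *Sox18*, *Vwf* and *Lyve1*, the 6 ratios and the division by the summed endothelial markers were added after seeing the data. The alternatives were other normalisations, genes above 1% of the counts taken out, the replicate number as a block, DESeq2, no filter or at least 10 counts in every sample, removal of a lowess trend (span 0.5) of each library with exon length, each sample left out, and other thresholds. The steps were run on simulated data in which every gene had the same dispersion. This is simpler than the real data, and no result given here rests on it. Promoter sequences are those of RefSeq (GRCm38.p6).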

Additional observations from a re-analysis of the deposited data

How the results depend on the processing

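Of 554 comparisons of the 37 genes with other settings, 454 kept direction and side of the threshold, 38 lost a call, 18 gained one and 44 changed sign, and *Vegfc* and *Aplnr* kept both in all 15 settings, as did *Bmx* in the 14 in which it was tested. The number of the 37 genes called was 6. It was 2 with library size only, 10 with the length trend removed, 1 (*Apln*) at an adjusted p of 0.01, 1 (*Apln*) with the thresholds of the study, and 0 to 15 when single samples were left out. All genes called were 3467, with 1277 at an adjusted p of 0.01, 1539 with the thresholds of the study and 1235 to 7620 when single samples were left out. With library size only, 27.7% of the 4085 calls were higher, against 52.1%.

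The median of the 37 genes was 0.14, -0.06 with library size only, 0.19 with the length trend removed and 0.13 to 0.21 when single samples were left out (0.19 where 13.5 dpc replicate 3 and 0.21 where 15.5 dpc replicate 1 was missing). The log2 ratio of the summed endothelial markers was 0.23, 0.01 with library size only and 0.21 to 0.26 without a sample.

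The replicate numbers did not pair the samples (correlations of deviations 0.27, -0.28 and 0.05). With the number as a block, *Apln* was the 1 gene called of the 37, with 2676 of all genes, and *Mmrn2* (-0.006) and *Vwf* (-0.030) changed sign.

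Signs also changed with upper quartile for *Mmrn2* (-0.017) and *Tie1* (-0.031), with no filter for *Mmrn2* (-0.007) and *Tie1* (-0.024), with at least 10 counts in every sample for *Tie1* (-0.012), and with the length trend removed for *Emcn* (0.11), *Flt1* (0.24), *Flt4* (0.11) and *Tek* (0.033). With library size only they changed for *Pecam1* (-0.062), *Cdh5* (-0.082), *Clec14a* (-0.062), *Robo4* (-0.068), *Rasip1* (-0.028), *Mmrn2* (-0.18), *Vwf* (-0.15), *Eng* (-0.066), *Tie1* (-0.21), *Erg* (-0.11), *Sox7* (-0.11), *Vegfa* (-0.16) and *Angpt2* (-0.059). When single samples were left out, *Emcn* was -0.21 to 0.083, *Ecscr* -0.20 to 0.011, *Mmrn2* -0.18 to 0.15, *Vwf* -0.35 to 0.26, *Flt1* -0.17 to 0.084, *Flt4* -0.35 to 0.017, *Tek* -0.26 to 0.072, *Tie1* -0.017 to 0.019, *Erg* -0.054 to 0.29 and *Angpt2* -0.065 to 0.31. What caused these changes was not tested. *Bmx*, with 9 to 20 counts per sample, had the highest standard error of the 37 genes (0.33).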
